A study of Mus musculus with 17 samples.

Results

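The 10 genes described here are known targets of TGF-beta signalling and of the co-activator YAP: Thbs1, Tnc, Ctgf, Cyr61, Ankrd1, Inhba, Tagln, Acta2, Postn and Fn1. They were taken by symbol from the 28670 genes in each sample's table, and all 10 passed the filter on low counts. The series holds RNA-seq of 17 mouse samples, which fall into 7 groups. Fibroblasts from WT embryos (MEF, strain c57/b6, passage 2) gave 2 samples. WT embryonic stem cells (ESC, passage 10 to 15) gave 4 samples, 2 of strain 129/B6 (v6.5) and 2 of c57/b6. WT induced pluripotent stem cells (iPSC) gave 3 samples, 1 of 129/B6 (v6.5) at passage 6 and 2 of c57/b6 at passage 10 to 15. WT partially reprogrammed cells (piPSC, clone B1), Nanog -/- ESC, and Nanog -/- iPSC clones G2 and G5 gave 2 samples each, all of 129/B6 (v6.5) at passage 6. The piPSC and each Nanog-null iPSC group are therefore single clones.

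Per the labels' protocols, the Nanog-null iPSC came from fibroblasts sorted out of chimeric embryos, which carried the descendants of the Nanog-null ESC. Reprogramming used retroviral Oct4, Sox2 and Klf4, to which c-Myc was added in some cases, and the labels do not say which clones received c-Myc. Nanog-null ESC and picked iPSC colonies were grown on feeder cells in 2i and LIF, which are inhibitors and a cytokine that hold mouse cells in a naive state, and MEF in serum. For WT ESC no separate culture is given. The protocols do not say whether feeder cells were removed before RNA extraction. The sample codes begin with AC or JI, called batches here; the labels name different sequencing sites but do not say what the codes stand for. The AC samples are all of 129/B6 (v6.5) and the JI samples all of c57/b6, so batch and strain cannot be told apart. WT MEF lie only in JI, piPSC and the Nanog-null lines only in AC, and WT ESC and WT iPSC in both.

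TGF-beta ligands bind paired receptor kinases that phosphorylate Smad proteins, which enter the nucleus and switch on matrix and contractile genes. YAP and its relative TAZ enter the nucleus when cells spread on a stiff substrate or when Hippo kinases are inactive, and act there through TEAD factors. Both pathways are active in cultured fibroblasts and meet at many genes. Matricellular proteins are secreted into the matrix, where they tune adhesion and growth factor access more than they carry load. Silencing of the fibroblast programme is an early step of reprogramming.

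Each sample had 7.80 to 43.5 M assigned fragments (M, 1e6). Nanog stood at 568 to 574 FPKM (fragments scaled to transcript length and library depth) in WT ESC of AC. It stood at 45.8 to 49.5 FPKM in Nanog-null ESC, 27.2 to 27.8 in clone G2 and 40.0 to 43.0 in clone G5, so the lines labelled null were far below WT but not at 0. Which part of the gene these fragments cover was not analysed here. The 10 pluripotency markers summed to 0.996 to 1.01 FPKM in WT MEF, with 6 of them at 0 in both samples, and to at least 2604 FPKM in every other sample. In piPSC, 9 of these 10 were called lower than in WT iPSC, where 41.2% of all genes were called lower. The exception was Pou5f1 (Oct4), at 6975 and 7303 FPKM in piPSC against 640 to 1448 in WT iPSC. Reprogramming used retroviral Oct4, and fragments of the retrovirus and of the cells' own gene were not told apart here. Pou5f1 carried most of the sum in piPSC, so that sum does not speak for the other 9 markers. The 15 fibroblast markers summed to 4112 to 4185 FPKM in WT MEF. The 8 macrophage markers summed to 627 to 629 FPKM there, against at most 96.9 FPKM in the other samples. Of these markers, Cd68 was not highest in WT MEF: its mean was 54.6 FPKM there, 63.5 in WT ESC of JI and 57.7 in WT iPSC of JI. In bulk RNA, fewer cells of a type and less RNA per cell cannot be told apart.

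WT MEF held all 10 genes at high levels, each above every other sample, which was the case for 19.3% of all genes tested. Together they took 3.59% and 3.63% of assigned fragments in the 2 WT MEF samples, against 0.161% to 0.501% in the other 15 samples. On the FPKM scale Thbs1 was the most abundant, followed by Tnc, Ctgf, Fn1, Acta2 and Tagln (whose samples overlapped), Cyr61, Inhba, Postn and, well below them, Ankrd1. In WT MEF against WT ESC, edgeR's quasi-likelihood test with batch as a term called 9 of 10 higher and none lower. Of all genes tested, 78.2% were called in that comparison, 37% higher and 41.2% lower. Tagln was the exception (log2 change 0.13 ± 0.17 (SE), adjusted p = 0.49). A fit of the JI samples alone, where 74% of genes were called, also called 9 higher and left out Tagln (0.29, adjusted p = 0.17).

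**Figure D1:**
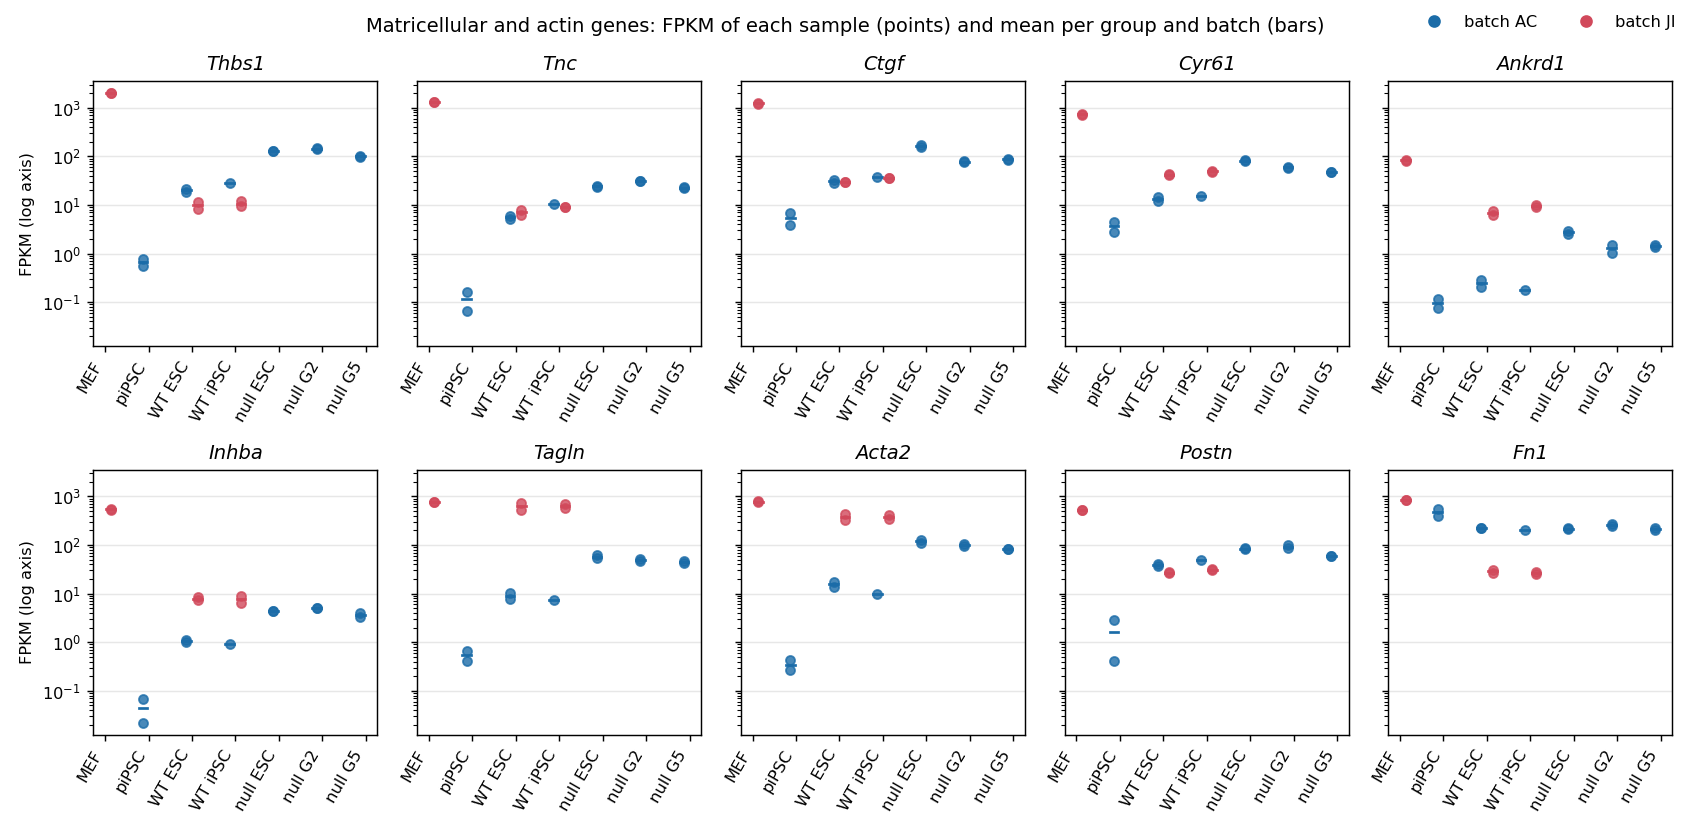
FPKM on a log axis for each of the 17 samples (points), with the mean of each group and batch as a bar; blue is batch AC and red batch JI. WT MEF are highest for all 10 genes, piPSC lowest for 9 of them, and for Tagln and Acta2 the WT pluripotent samples of JI lie close to WT MEF.

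As a share of the WT MEF mean, the median over the 10 genes was 9.33% in Nanog-null ESC, 6.83% in clone G2 and 6.14% in clone G5. It was 0.0914% in piPSC. The AC samples of WT ESC stood at 1.5% and the AC sample of WT iPSC at 1.33%, while the JI samples stood at 4.28% and 4.57%. Every Nanog-null sample lay below both WT MEF samples for all 10 genes, as did 34.7% of all genes tested. Both piPSC samples also lay below both WT MEF samples for all 10 genes, as did 38.5% of all genes. Fn1 was the least reduced gene in each of these lines, at 24.8% to 30.2% of WT MEF in the Nanog-null lines and 54.8% in piPSC. Inhba was the most reduced, at 0.689% to 0.946% in the Nanog-null lines and 0.00823% in piPSC, where Tnc stood at 0.00875%. WT MEF and the lines compared with them share neither batch nor strain, so these shares carry that difference too.

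**Figure D2:**
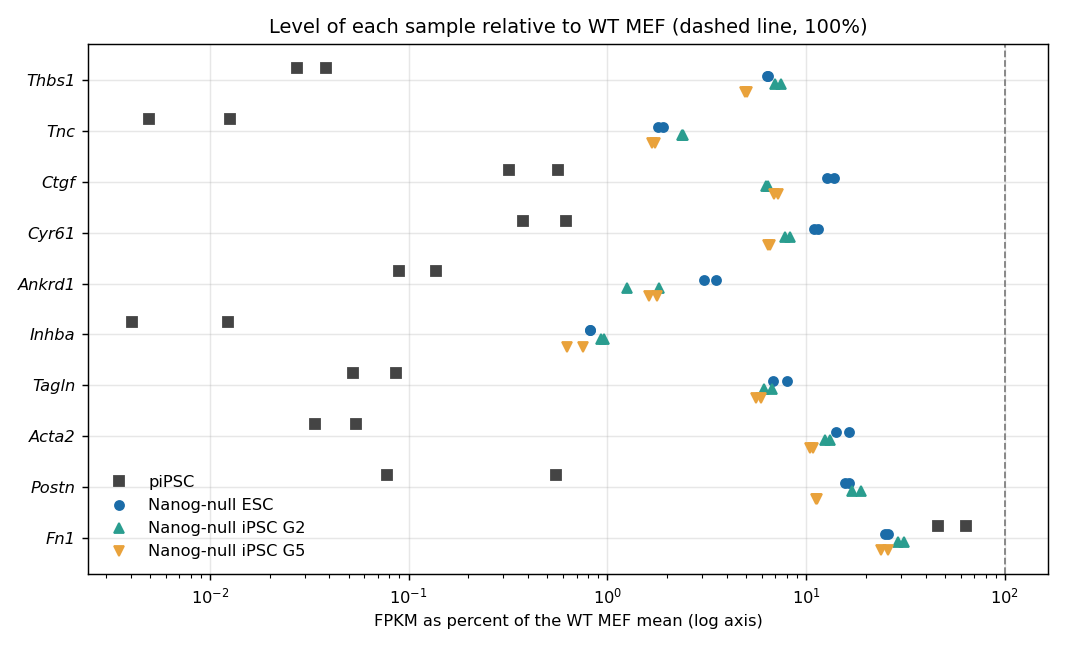
FPKM of each piPSC and Nanog-null sample as a percent of the WT MEF mean, on a log axis, for the 10 genes. The Nanog-null samples lie between 0.627% and 31.2%, and piPSC lie below them for 9 genes and above them for Fn1.

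The secreted matricellular proteins Thbs1, Tnc and Postn come first. Thbs1 encodes thrombospondin 1, which binds CD36 and CD47 and can free TGF-beta from its latent complex. It stood at 1977 and 2002 FPKM in WT MEF, at 126 and 129 in null ESC, at 139 and 148 in G2, and G5 gave 97.7 and 101. The WT ESC gave 21.4 and 18.6 FPKM in AC and 8.40 and 11.4 in JI. The WT iPSC gave 27.7 FPKM in AC and 9.45 and 11.9 in JI, and piPSC 0.763 and 0.546. No Nanog-null sample overlapped any WT ESC or WT iPSC sample, and piPSC lay below all of them.

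Tnc encodes tenascin C, a hexameric glycoprotein of developing and wounded tissue. Its FPKM was 1290 and 1325 in WT MEF, 23.5 and 24.9 in null ESC, 30.9 and 31.5 in G2, and 22.0 and 22.9 in G5. The 4 WT ESC samples ranged from 5.23 to 7.93 and the 3 WT iPSC samples from 9.19 to 10.2. In piPSC it fell to 0.0644 and 0.165 FPKM, from 10 and 33 fragments. Tnc differed little between batches, and its Nanog-null samples again lay above every WT pluripotent sample.

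Postn encodes periostin, which links fibronectin, tenascin and collagen. It stood at 523 and 515 FPKM in WT MEF, at 85.4 and 81.4 in null ESC, at 88.3 and 97.9 in G2, and G5 gave 58.1 and 59.2. WT ESC had 36.8 and 40.5 FPKM in AC and 27.3 and 26.6 in JI. WT iPSC had 49.1 in AC and 32.0 and 30.4 in JI. The piPSC samples were far apart, at 2.88 and 0.405 FPKM. The Nanog-null samples lay above all WT pluripotent ones, by a small margin in clone G5.

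Fn1, fibronectin, is a structural matrix protein and a ligand of integrins, and was the gene that departed most from the others. Its FPKM was 849 and 856 in WT MEF and 393 and 542 in piPSC. Null ESC had 212 and 220, G2 249 and 266, and G5 203 and 221. The AC samples of WT ESC gave 226 and 222 and the AC sample of WT iPSC 208. These levels lie within the range of the Nanog-null lines. In JI, WT ESC gave 26.7 and 30.6 and WT iPSC 25.1 and 28.4 FPKM. Of all fragments of the 10 genes, Fn1 took 99.2% and 99.3% in piPSC, 46.7% to 56.2% in the Nanog-null lines and 19.2% and 19.4% in WT MEF.

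Ctgf and Cyr61 encode the secreted CCN proteins that bind integrins and heparan sulphate, and Ankrd1 encodes a nuclear and sarcomeric ankyrin repeat protein. All are textbook targets of YAP and TEAD. TEAD factors bind the letters CATTCC, so the windows before the start of transcription were searched for CATTCC on both strands (GGAATG is its reverse complement). RefSeq windows of 250 bases upstream of the start were at hand for 6 of the 10 genes: Tnc, Cyr61, Ankrd1, Inhba, Acta2 and Postn (8 windows, build GRCm38.p6). CATTCC occurred in 3 of these 6 genes and in 12.6% of all 32851 mouse windows of this length. The members are counted here per gene and the background per window, and Tnc and Postn had 2 windows each. The strict letters of a serum response element (the CArG box: CC, 6 letters A or T, then GG) occurred in 0 of 6 genes and in 1.47% of all windows. The AP-1 letters TGANTCA occurred in 0 of 6 genes and in 6.75% of windows. CArG boxes that depart from the strict letters were not searched for, so the count of 0 does not mean that these windows lack one. A match describes the letters and not a bound site. The window of Cyr61 (RefSeq symbol Ccn1) at chr3:145649986-145650235, minus strand, is printed whole because Cyr61 is a member whose levels separate the Nanog-null lines from the WT lines of AC, with the match in capitals. The matches of Ankrd1 and Acta2 are shown with their flanks.
Cyr61 window: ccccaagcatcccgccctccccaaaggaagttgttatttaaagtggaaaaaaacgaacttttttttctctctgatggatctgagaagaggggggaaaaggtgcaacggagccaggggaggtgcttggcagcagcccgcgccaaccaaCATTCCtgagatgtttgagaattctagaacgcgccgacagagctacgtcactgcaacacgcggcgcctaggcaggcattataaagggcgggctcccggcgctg
Ankrd1, chr19:36120037-36120066, 210 bases before the start: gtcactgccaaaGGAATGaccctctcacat
Ankrd1, chr19:36119950-36119979, 123 bases before the start: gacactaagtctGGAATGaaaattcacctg
Acta2, chr19:34255502-34255531, 146 bases before the start: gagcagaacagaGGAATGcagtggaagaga

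Ctgf stood at 1200 and 1248 FPKM in WT MEF. Nanog-null ESC had 170 and 157 FPKM, clone G2 77.4 and 79.1 and clone G5 88.6 and 84.8, so ESC lay above both clones. The 4 WT ESC samples ranged from 28.7 to 32.3 and the 3 WT iPSC samples from 35.5 to 38.4, with the batches alike. The piPSC samples gave 3.91 and 6.89 FPKM.

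Cyr61, whose promoter window is printed above, stood at 712 and 746 FPKM in WT MEF. Null ESC gave 84.0 and 79.5, G2 57.4 and 60.7, and G5 47.1 and 47.9. The AC samples gave 14.4 and 12.2 in WT ESC and 15.4 in WT iPSC, and the JI samples 43.1 and 41.4 in WT ESC and 48.2 and 50.01 in WT iPSC. Nanog-null samples lay above the AC samples in each case, but G5 lay below the JI samples of WT iPSC. In piPSC it was at 2.74 and 4.54.

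Ankrd1, with its 2 CATTCC matches, was the least abundant gene in WT MEF. It stood at 81.7 and 84.7 FPKM in WT MEF, 2.56 and 2.92 in null ESC, 1.52 and 1.05 in G2, and 1.35 and 1.47 in G5. The AC samples of WT ESC gave 0.290 and 0.206 and that of WT iPSC 0.178, from 14, 8 and 9 fragments. In JI, WT ESC gave 6.08 and 7.53 FPKM and WT iPSC 9.90 and 8.91, above every Nanog-null sample. The piPSC libraries held only 4 and 6 fragments, which put it at 0.0894% of WT MEF (exact Poisson 95% interval 0.0244% to 0.229%) and 0.137% (0.0502% to 0.298%). Such intervals cover counting error only.

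Inhba encodes the subunit of activin A, a ligand of the TGF-beta family that signals through Smad2 and Smad3. It stood at 536 and 542 FPKM in WT MEF and at 4.40 and 4.39 in Nanog-null ESC. Clone G2 had 5.03 and 5.16 and clone G5 3.38 and 4.04. WT ESC gave 1.09 and 1.0 in AC and 7.53 and 8.33 in JI, and WT iPSC 0.931 in AC and 9.003 and 6.54 in JI. The Nanog-null samples thus lay between the batches of the WT lines. In piPSC 1 and 3 fragments were assigned, which is 0.00405% of WT MEF (exact Poisson 95% interval 0.000103% to 0.0226%) and 0.0124% (0.00256% to 0.0363%).

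Tagln and Acta2 encode transgelin and smooth muscle actin, the contractile proteins that rise when a fibroblast becomes a myofibroblast. Tagln stood at 774 and 773 FPKM in WT MEF, 62.4 and 52.9 in null ESC, 52.3 and 47.3 in G2, and 43.2 and 46.0 in G5. The AC samples gave 7.91 and 10.2 in WT ESC and 7.26 in WT iPSC. The JI samples gave 730 and 527 in WT ESC and 687 and 585 in WT iPSC, 69.5 and 87.6 times the mean of the AC samples of the same cell type. The piPSC gave 0.671 and 0.406. The JI samples of the pluripotent lines thus approached WT MEF, and the Nanog-null lines lay between the batches.

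Acta2 followed the same order. It stood at 766 and 793 FPKM in WT MEF, 128 and 111 in null ESC, 103 and 97.1 in G2, and 84.6 and 81.3 in G5. WT ESC gave 13.5 and 17.6 in AC and 430 and 332 in JI. WT iPSC gave 9.88 in AC and 415 and 343 in JI, and piPSC 0.423 and 0.263. The summed level of 6 smooth muscle markers was 47.1 to 64.1 FPKM in the WT pluripotent samples of JI and 16.6 to 17.2 in those of AC. Of these markers, Cnn1, Des, Lmod1 and Myh11 were called lower in AC, where 35.7% of all genes were. Smtn was called higher in AC (log2 change 0.47 ± 0.13 (SE)), as were 35.2% of all genes, and Myocd was not called. The part of these markers in the batch difference of Tagln and Acta2 was not tested.

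The batch term, which is estimated on WT ESC and WT iPSC, was itself tested. In AC against JI, 8 of 10 genes were called, where 71% of all genes were (35.2% higher and 35.7% lower). Tagln (log2 change -6.27 ± 0.18 (SE)), Ankrd1 (-5.11), Acta2 (-4.88), Inhba (-3.01) and Cyr61 (-1.69) were lower in AC. Fn1 (2.98 ± 0.12), Thbs1 (1.16) and Postn (0.78) were higher in AC. Postn lost its call without WT iPSC 1 (0.69, adjusted p = 0.0504). Ctgf and Tnc were not called (0.03 and 0.02, adjusted p = 0.86 and 0.92, edgeR's quasi-likelihood test). The contractile genes and Fn1 therefore differed in opposite directions between WT pluripotent lines of the same label.

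This term decides the tests against WT MEF. With it, 7 of 10 genes were called lower than in WT MEF in each Nanog-null line, where 69.5% of all genes were called in either direction for Nanog-null ESC (38.4% higher, 31.2% lower), 68.8% for G2 (38% higher, 30.7% lower) and 70.3% for G5 (38.8% higher, 31.5% lower). Tagln and Acta2 were called higher, by 2.63 ± 0.23 and 2.28 ± 0.24 on the log2 scale in Nanog-null ESC, although every Nanog-null sample lay below both WT MEF samples. Ankrd1 was not called (0.31, -0.76 and -0.68 in ESC, G2 and G5, adjusted p = 0.37, 0.06 and 0.089). It was called lower in G2 without WT iPSC 1 (-1.15, adjusted p = 0.011), WT iPSC 2 (-0.87, adjusted p = 0.0404) or G2 1 (-1.10, adjusted p = 0.019), and in G5 without WT iPSC 1 (-1.08, adjusted p = 0.0151). Without the term, all 10 changes were negative in each line and 7 were called lower, among 39.9%, 38% and 42% of all genes called. The 3 not called were Tagln (-3.64 in Nanog-null ESC, adjusted p = 0.15), Acta2 (-2.60, adjusted p = 0.20) and Fn1 (-1.87, adjusted p = 0.20). Thbs1, Tnc, Ctgf, Cyr61, Inhba and Postn were called lower by both fits in the 3 lines, Thbs1 by -5.01 ± 0.21 with the term and -3.85 without it in Nanog-null ESC. Fn1 was called lower with the term in each line (-4.85, -4.61 and -4.89 in ESC, G2 and G5) and in none without it (-1.87, -1.63 and -1.91, adjusted p = 0.20, 0.27 and 0.19). For Tagln, Acta2, Ankrd1 and Fn1 the direction or the call against WT MEF depended on the batch term. WT MEF share neither batch nor strain with these lines, so for all 10 genes neither fit can tell cell type apart from batch. The term carries the difference between batches of WT pluripotent lines over to fibroblasts, and whether it holds there was not tested.

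The comparison of Nanog-null with WT lines can be made within AC as well as over all samples with the batch term. Nanog-null ESC were at passage 6 and WT ESC at passage 10 to 15, so genotype, passage and line cannot be told apart there. Over all samples, Nanog-null ESC had 9 of the 10 genes higher than WT ESC and none lower, where 57.2% of all genes were called, 30.3% higher and 27% lower. The median log2 change was 2.52 over the 10 genes and 0.02 over all genes. The change was largest for Ankrd1 (3.76 ± 0.25 (SE)) and Acta2 (3.08 ± 0.18), followed by Tagln (2.76), Cyr61 (2.64), Thbs1 (2.63 ± 0.15), Ctgf (2.42), Inhba (2.13) and Tnc (1.997). Postn rose least (1.01 ± 0.31, adjusted p = 0.012) and was no longer called without WT ESC 1 (0.93, adjusted p = 0.0509) or Nanog-null ESC 2 (0.99, adjusted p = 0.056). Fn1 was not called (-0.06 ± 0.14, adjusted p = 0.73). In AC alone, where 69.6% of all genes were called, the same 9 genes were called higher and Fn1 was not. By level within AC, these 9 were higher in both Nanog-null ESC samples than in both WT ESC samples and Fn1 was lower in both, where 85% of all genes did not overlap (43.3% higher, 41.7% lower). On mean FPKM within AC, the rise was 11.1-fold for Ankrd1, 7.67-fold for Acta2 and 6.38-fold for Thbs1.

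In Nanog-null iPSC against WT iPSC, taken over both clones, 8 genes were called higher and none lower, where 59.8% of all genes were called, 27.9% higher and 31.8% lower. Acta2 (2.88 ± 0.20), Tagln (2.52), Ankrd1 (2.32), Thbs1 (2.20 ± 0.15), Inhba (2.14), Cyr61 (1.75), Tnc (1.498) and Ctgf (1.11 ± 0.15) rose. Postn (0.65, adjusted p = 0.08) and Fn1 (0.11, adjusted p = 0.51) were not called. AC alone, with 67.4% of all genes called, gave the same 8 calls, but rests on 1 WT iPSC sample, whose spread is taken from the remaining groups. Without a batch term, which sets the Nanog-null lines against the JI samples too, 5 genes stayed called higher in ESC (Thbs1, Tnc, Ctgf, Cyr61 and Postn, among 31% of all genes called) and 3 in iPSC (Thbs1, Tnc and Ctgf, among 46.6%). Tagln (-2.46 in ESC and -3.25 in iPSC), Acta2 (-0.72 and -1.56) and Ankrd1 (-0.27 and -2.28) turned negative and lost their calls. Inhba lost both calls (0.03 in ESC and -0.39 in iPSC, adjusted p = 0.98 and 0.70), and Cyr61 its call in iPSC (0.42, adjusted p = 0.49). Taking both batches of WT ESC and WT iPSC, 4 of the 10 genes (Thbs1, Tnc, Ctgf and Postn) were higher in every Nanog-null sample than in any WT one, where 16.5% of all genes were.

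**Figure D3:**
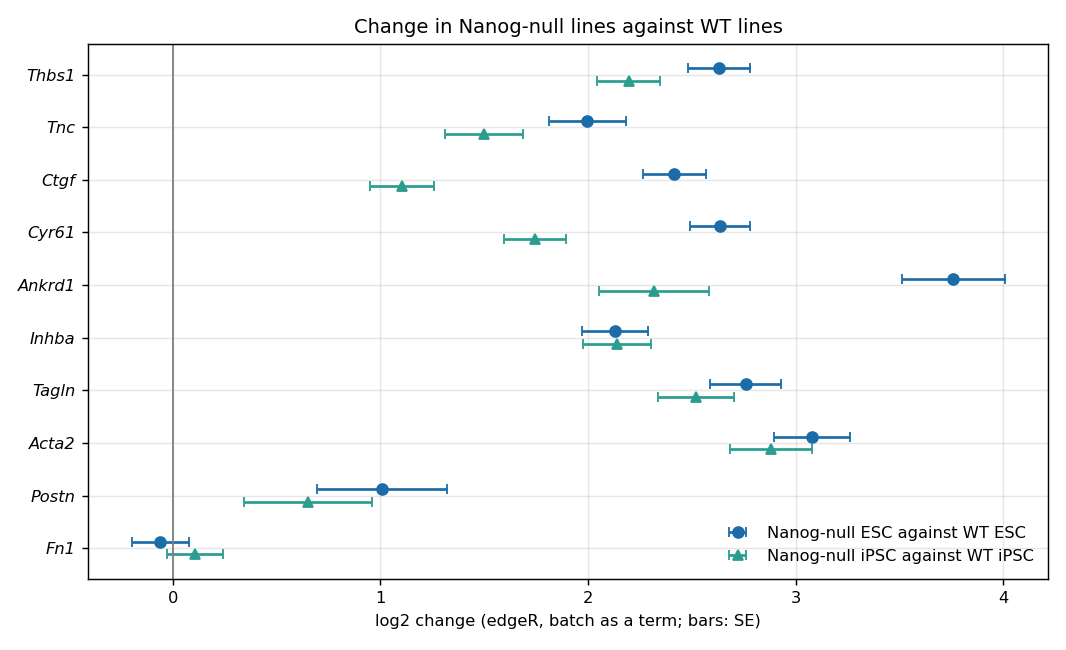
Log2 change of each gene in Nanog-null ESC against WT ESC (circles) and in Nanog-null iPSC against WT iPSC (triangles), fitted with batch as a term; bars are the standard error. Fn1 sits near 0 in both, and Ctgf, Cyr61 and Ankrd1 lie farther to the right in ESC than in iPSC.

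Markers of fibroblasts moved with these genes. All 15 rose in Nanog-null ESC and all 15 in Nanog-null iPSC against the WT lines, where 30.3% and 27.9% of all genes were called higher. Their median level was 20.8% of WT MEF in Nanog-null ESC, 27.9% in clone G2 and 11.7% in clone G5, against 4.03% and 6.90% in WT ESC and WT iPSC of AC. Their summed FPKM was 838 to 845 in Nanog-null ESC, 1288 to 1355 in clone G2 and 507 to 512 in clone G5, against 163 to 178 in AC WT ESC and 259 in AC WT iPSC, and none of the 15 was at 0. Of the markers, 13 of 15 stood highest in G2, then ESC, then G5, as did 5 of the 10 genes (Thbs1, Tnc, Postn, Inhba and Fn1) and 13.6% of all genes tested. The remaining 5 (Ctgf, Cyr61, Ankrd1, Tagln and Acta2) were highest in Nanog-null ESC, as were 36.1% of all genes. Primitive endoderm markers moved too: beside the same shares of all genes, 10 of 10 rose in Nanog-null ESC and 8 of 10 in Nanog-null iPSC. Their sums were 172 FPKM in Nanog-null ESC, 105 to 119 in G2 and 95.2 to 98.5 in G5, against 5.80 to 10.4 in the AC WT lines. The part of either marker set in the rise of the 10 genes was not tested.

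**Figure D4:**
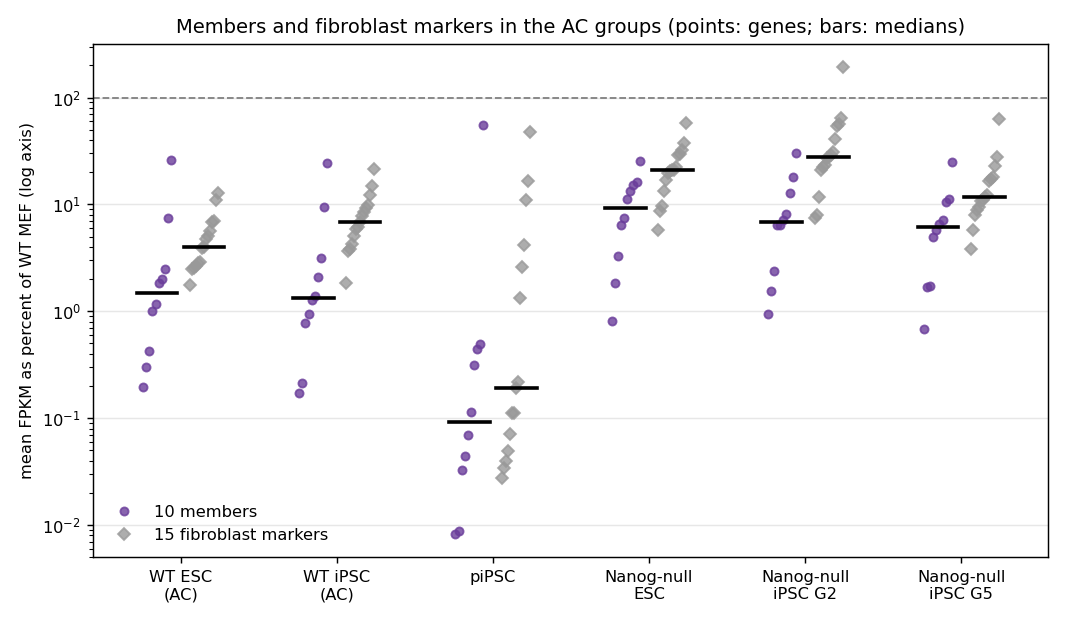
Mean FPKM as a percent of WT MEF, on a log axis, of the 10 genes (circles) and of 15 fibroblast markers (diamonds) in the AC groups, with the median of each set as a bar. The medians of both sets are higher in the Nanog-null lines than in the WT lines, and in each group the median of the 10 genes lies below that of the fibroblast markers.

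By FPKM, partially reprogrammed cells held little of the set beside WT MEF, with Fn1 the least reduced. No fibroblasts of their own strain and batch were measured. Against WT MEF, 10 of 10 genes were called lower with the batch term, where 70.2% of all genes were called (34.8% higher, 35.4% lower), from -3.85 ± 0.19 for Fn1 to -13.64 ± 0.36 for Tnc (-13.02 without piPSC 1 and -14.74 without piPSC 2). Without the term 9 were called lower, where 42.8% of all genes were called in either direction, and Fn1 was not called (-0.87, adjusted p = 0.56). Against WT iPSC, 9 genes were lower and Fn1 was higher (1.003 ± 0.153), where 68.8% of all genes were called (27.5% higher, 41.2% lower). Tnc (-6.61 ± 0.29), Thbs1 (-5.48), Postn (-5.39), Acta2 (-5.25) and Inhba (-4.47) had the largest fitted falls. The size and order of these rest on single piPSC samples: without piPSC 1 the changes were -5.99 for Tnc, -7.14 for Postn and -3.92 for Inhba, and without piPSC 2 they were -7.71, -4.62 and -5.37. Inhba and Ankrd1 had at most 6 fragments per piPSC sample, so that their fitted changes depend on the prior count. Tagln (-4.02), Ctgf (-2.95), Cyr61 (-2.22) and Ankrd1 (-1.59) fell less. In AC alone, where 75.6% of all genes were called, Ankrd1 was not called (-0.88, adjusted p = 0.22), and the 1 WT iPSC sample carries that comparison.

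Nanog-null iPSC and piPSC share batch, strain and passage. Here 9 genes were higher in Nanog-null iPSC and Fn1 was lower (-0.90 ± 0.12), where 74.8% of all genes were called (42.7% higher, 32.1% lower). Without a batch term, which widens the spread and leaves 48.7% of all genes called, Ankrd1 (3.90, adjusted p = 0.084) and Fn1 (adjusted p = 0.45) were not called. The differences were 8.14 ± 0.28 for Acta2 and 8.11 for Tnc on the log2 scale and, among the 9 higher genes, were smallest for Ankrd1 (3.91 ± 0.32) and Cyr61 (3.96 ± 0.17). Single piPSC samples moved 3 of them: without piPSC 1 Tnc stood at 7.49, Postn at 7.79 and Inhba at 6.06, and without piPSC 2 at 9.21, 5.27 and 7.51. The median fibroblast marker stood at 0.192% of WT MEF in piPSC, with a sum of 68.7 to 111 FPKM, and all 15 were higher in Nanog-null iPSC. The part of these markers in the difference was not tested.

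In the fit of all samples, few genes of this set were called between clones G2 and G5 of Nanog-null iPSC. The count depended on which samples entered the fit. Thbs1 alone was called, higher in G2 by 0.55 ± 0.15 (adjusted p = 0.047), where 5.84% of all genes were called (3.66% higher, 2.18% lower). That call was lost when any 1 of the 4 samples was left out (adjusted p = 0.177 to 0.295). In AC alone, where 19.9% of all genes were called, Thbs1, Tnc (0.44) and Inhba (0.47) were called higher in G2. By level, 8 of the 10 genes were higher in both G2 samples than in both G5 samples, Ctgf was lower and Ankrd1 overlapped. With 2 samples in each clone, 60.8% of all genes did not overlap, 27.4% being higher and 33.4% lower in G2. Beside this, 12 of the 15 fibroblast markers were called higher in G2 than in G5.

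The rise in Nanog-null lines was compared between ESC and iPSC by the difference of the log2 changes, a comparison added after seeing the data. It was larger in ESC for Ctgf (1.31 ± 0.18, adjusted p = 0.0004), Ankrd1 (1.44 ± 0.25, adjusted p = 0.0016) and Cyr61 (0.89 ± 0.18, adjusted p = 0.0038), where 15.3% of all genes were called (9.78% higher, 5.47% lower). Of the calls over all genes, 64.1% were higher in ESC, and 53.8% with upper-quartile scaling. Within AC alone, where 44.1% were called, Ctgf (1.27) and Cyr61 (0.80) were called again and Ankrd1 was not (0.49, adjusted p = 0.53), while Thbs1 (0.54) and Tnc (0.69) were. Over all samples, both were also called without WT ESC 4 (Thbs1 0.55, Tnc 0.65, adjusted p = 0.0114 and 0.0129), and Thbs1 without WT iPSC 2 (adjusted p = 0.0364). The other 5 genes were called by neither fit. Of the fibroblast markers, 5 of 15 also rose more in ESC.

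Other genes of the pathways were read from gene lists of each role. Their counts stand against 30.3% of all genes called higher and 27% lower in Nanog-null ESC, 27.9% and 31.8% in Nanog-null iPSC, and 27.5% and 41.2% in piPSC against WT iPSC. Of 18 tested TGF-beta response genes, 15 rose and 1 fell in Nanog-null ESC, and likewise 15 and 1 in Nanog-null iPSC. The median log2 change was 1.85 and 1.51, against 0.02 and -0.06 over all genes. Timp3, a metalloproteinase inhibitor, rose by 3.11 ± 0.33 and 2.69 ± 0.32. Lox, which cross-links collagen, rose by 2.42 ± 0.14 and 1.96 ± 0.14. In piPSC against WT iPSC, 5 of the 18 rose and 11 fell, Lox by -7.88 ± 0.22.

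Of 16 tested ligands and latency proteins, 11 rose and 5 fell in Nanog-null ESC (median 1.04), and 9 rose and 4 fell in Nanog-null iPSC (median 1.36). Bmp4 rose in both, by 2.80 ± 0.22 and 3.94 ± 0.25. Lefty2, a Nodal antagonist, fell in Nanog-null ESC (-2.94 ± 0.26). Tgfb2 was higher in Nanog-null iPSC than in WT iPSC (2.99 ± 0.15) and higher still in piPSC, at 38.6 FPKM against 15.8 in WT MEF. Of 19 receptors and Smads, 10 rose and 3 fell in Nanog-null ESC, and 10 rose and 4 fell in Nanog-null iPSC (medians 0.40 and 0.28). These 13 and 14 calls of 19 compare with 57.2% and 59.8% of all genes called. The receptor gene Tgfbr2 rose by 3.21 ± 0.17 and 2.28 ± 0.18.

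The YAP side showed a similar count. Of 19 tested response genes other than the members, 14 rose and 2 fell in Nanog-null ESC (median 1.65), and 12 rose and 1 fell in Nanog-null iPSC (median 0.89). F3, tissue factor, rose by 4.84 ± 0.17 and 4.02 ± 0.18. Of 19 regulators, 8 rose and 3 fell in each comparison (medians 0.13 and 0.16), a share called that is near that of all genes (57.2% and 59.8%). Amot, which holds YAP at junctions, rose by 4.35 ± 0.14 and 5.87 ± 0.15. Yap1 and Wwtr1 (TAZ) are named here after their values were seen. Yap1 was not called in either comparison (0.12 and 0.02, adjusted p = 0.42 and 0.93). Wwtr1 rose in both, by 1.26 ± 0.10 and 1.65 ± 0.10. In piPSC against WT iPSC, 8 of the YAP response genes rose and 9 fell, so they did not fall as a block where Ctgf, Cyr61 and Ankrd1 did: Tgfb2, which the list also holds, rose by 5.28 ± 0.17 and Nt5e by 4.81 ± 0.33, while F3 fell by 4.25 ± 0.33 on the log2 scale.

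Of 23 tested SRF and contractile genes, 18 rose and 2 fell in Nanog-null ESC, and 17 rose and 1 fell in Nanog-null iPSC (medians 1.05 and 1.07). Zyx, a focal adhesion protein, rose by 3.23 ± 0.11 and 3.01 ± 0.12. In AC against JI, 14 of these 23 were lower, beside Tagln and Acta2, and 6 were higher, against 35.7% and 35.2% of all genes. Of 21 other matricellular genes, 15 rose and 2 fell in Nanog-null ESC, 12 rose and 4 fell in Nanog-null iPSC, and 2 rose and 15 fell in piPSC against WT iPSC (medians 1.86, 1.52 and -4.65). Thbs2, the paralogue of Thbs1, rose by 2.44 ± 0.20 and 2.14 ± 0.19 in the Nanog-null lines. Spp1, osteopontin, fell by 8.25 ± 0.20 on the log2 scale in piPSC. Of 12 integrins and other fibronectin receptors, 9 and 8 rose and none fell in the Nanog-null comparisons (medians 0.85 and 1.04), while Fn1 itself was not called. Cd44, a receptor that binds fibronectin and hyaluronan, was higher in piPSC than in WT iPSC by 4.92 ± 0.13. The lists hold genes in common with each other and with the fibroblast markers (Col1a1, Col1a2, Col3a1 and Loxl1), and were not tested as sets.

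Across the 17 samples, some of which share cell type, batch or clone, the genes fell into patterns that are given as a description. Pearson's r of log2(FPKM + 1) was 0.972 between Thbs1 and Ctgf, 0.958 between Thbs1 and Tnc, and 0.974 between Tagln and Acta2. It was 0.956 between Ankrd1 and Inhba. Fn1 stood apart, from -0.453 with Tagln to 0.457 with Thbs1. Among 11598 genes compared, those most like a member were Mmp14 for Thbs1 (0.991), Loxl1 for Tnc (0.989), Fst for Ctgf (0.984), Lhfp for Cyr61 (0.992) and Stbd1 for Ankrd1 (0.985). For the remaining genes they were Rgs4 for Inhba (0.994), Myl9 for Tagln (0.981), Gpx8 for Acta2 (0.992), Marcks for Postn (0.987) and Smarcc2 for Fn1 (0.993).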

How the data were processed

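RNA-seq libraries (TruSeq v2, from Trizol RNA) of 17 samples were compared. Per the submitters' processing notes, the authors used Cuffdiff 2.1.1, Bowtie2 2.0.5, TopHat2 2.0.7 and CASAVA, with no role or order given. The deposited sample tables hold, per the file headers, expected counts of fragments per gene, internally and externally scaled fragments (a scaled signal) and FPKM. The notes name 2 genome builds without a role, so coordinates are given only for RefSeq promoter windows (GRCm38.p6).

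Groups came from sample titles and batches from the sample codes. Fragment counts were rounded and tested with edgeR 4.0.16 (quasi-likelihood, TMM scaling, filterByExpr) in R 4.3.3. All 17 samples entered 1 fit with terms for group and batch (9 residual degrees of freedom). It tested 17446 genes, 19 being left out for a failed status in some sample. P-values were adjusted by Benjamini and Hochberg over all genes, with a threshold of 0.05. Between 96.9% and 98.6% of deposited counts were whole to within 0.01. Alternatives used DESeq2 1.42.0, limma 3.58.1 on log2(FPKM + 1) and log2(FPKM + 0.1), other scalings and filters, batch handling, and leaving out each sample. The test was also run on simulated data, and no statement here rests on that run.

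The members and lists were chosen with earlier results of these data known. From each list and comparison, the text names up to 3 called genes, those with the largest absolute log2 change whose samples do not overlap between the groups; 1 of the groups needed a mean FPKM of 5 or more. Since the labels do not name separate cultures for the replicates, the p-values speak only of the spread between these samples, which may be technical.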

Additional observations from a re-analysis of the deposited data

Results flagged for a closer look

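The rise in Nanog-null lines differed between ESC and iPSC, by a test of the difference itself, for 3 of the 10 genes: Ctgf (1.31 on the log2 scale, larger in ESC), Ankrd1 (1.44) and Cyr61 (0.889). Of all genes tested, 15.3% were called in that comparison, 9.78% higher and 5.47% lower in ESC. The comparison was added after seeing the data. Within batch AC alone Ankrd1 was not called (0.49, adjusted p = 0.53). Dixon's test singled out no sample of WT ESC, but that group holds 2 samples of each batch, so for genes that differ between batches it could not have done so. The other groups have fewer than 4 samples and were not tested for this.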

How the results depend on the processing

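Of 2480 values of single genes under alternatives, 44 turned direction, 42 passed the threshold where they had not, 37 no longer passed it, and the rest kept both. Scaling moved the median change of all genes by -0.137 to 0.129 on the log2 scale. The cause was not tested for any of these changes except where fewer genes or samples enter by construction. Without a batch term no gene was called higher than in WT MEF (0 in null ESC, 0 in G2, 0 in G5), and null ESC, G2 and G5 had Tagln at -3.64, -3.86 and -4.03 and Acta2 at -2.60, -2.86 and -3.14, with Ankrd1 at -4.81 in null ESC. Fitting only the groups compared also gave 0 called higher in each line, with Tagln at -3.69, -3.85 and -4.06, Acta2 at -2.64, -2.86 and -3.17, and Ankrd1 at -4.82. Without a batch term, null ESC against WT ESC had 5 genes called higher, with Ankrd1 at -0.27, Fn1 at 0.75, Tagln at -2.46 and Acta2 at -0.72. Nanog-null against WT iPSC then had 3, with Ankrd1 at -2.28, Tagln at -3.25, Acta2 at -1.56 and Inhba at -0.39. It also left 0 genes higher in piPSC than in WT iPSC, 0 lower in Nanog-null iPSC than in piPSC, and 0 between G2 and G5.

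For G2 against G5 the count of 1 became 0 with limma at either pseudocount, with a mean FPKM of at least 5, with a 2-fold minimum and without any 1 sample, 2 with no filter or a replicate block, 3 in AC alone and 8 with only those groups. Beside these counts, 1018 of all genes were called in the main fit (5.84%), 3479 in AC alone (19.9%) and 5481 with only those groups. Ankrd1 in G2 against G5 ranged from -0.42 to 0.12 over samples left out. For the ESC and iPSC difference the count of 3 became 5 with no filter or a replicate block, and ranged from 3 to 5 over samples left out (5 without WT ESC 4). Inhba was then 0.0224 with no filter and -0.15 to 0.11 over samples left out, Acta2 was -0.04992 with a replicate block and -0.29 in AC alone, and Tagln was -0.0544 in AC alone. Nanog-null iPSC against piPSC lost its 1 lower gene (0) at a 2-fold minimum. In AC against JI, upper-quartile scaling gave -0.0085 for Ctgf and -0.014 for Tnc, and limma -0.13 and -0.15 for Tnc at pseudocounts of 1 and 0.1. Over samples left out Ctgf ranged from -0.022 to 0.070 and Tnc from -0.14 to 0.17. For null ESC against WT MEF, limma gave Ankrd1 at -1.65 and -0.25, and leaving out samples -0.088 to 0.64. Tagln in WT MEF against WT ESC was -0.24 with a replicate block and -0.0715 to 0.35 over samples left out. Postn in null ESC against WT ESC was not called by DESeq2 (0.997, adjusted p = 0.0563).

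The median percent of WT MEF was 0.141 in piPSC as a geometric mean. On TMM-scaled CPM, plain CPM and a geometric mean it was 10.04, 11.1 and 6.83 in null ESC, 7.36, 8.30 and 5.98 in G2 and 6.53, 7.28 and 4.90 in G5. Leaving out samples gave 0.0653 to 0.0924 in piPSC, 8.88 to 9.79 in null ESC, 6.81 to 6.96 in G2 and 6.02 to 6.26 in G5. Over all genes, G2 against G5 had 1018 calls, 6 without a batch term and 5481 with only those groups; the ESC and iPSC difference had 2661, 7695 in AC alone, 4083 with a replicate block, and 995 to 4510 over samples left out. A mean FPKM of at least 5, which tests fewer genes, lowered null ESC against WT ESC from 9985 to 5816, a 2-fold minimum to 5208 and no batch term to 5413. Same-numbered samples of piPSC and the Nanog-null lines did not deviate together (correlations -0.0213 to 0.00308). The other groups were not checked, and this cannot show whether samples were prepared in pairs. Depth limits Inhba, Ankrd1 and Tnc in piPSC, with 1 to 33 fragments per sample.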
